A study of Homo sapiens with 6 samples.

Results

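LINC genes are long intergenic noncoding RNA genes, named in series by the human gene nomenclature when a noncoding transcript has no better-known function or neighbour to be named after. The genes described here were chosen by the symbol LINC followed by digits only and by a mean abundance of at least 0.5 TPM, a length-corrected measure of transcript abundance, over the 6 libraries, with TPM summed over rows that share a symbol. The rule took 180 of 1740 LINC symbols and of 28307 gene symbols in all. Because the rule used the mean level over all libraries, the levels are given as a description. The rule did not use the difference between the groups. A gene near the threshold can still meet it through the higher values of 1 group. The genes were also chosen with earlier results of these data known.

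The libraries came from SW480, an established human colon adenocarcinoma line, after polyA selection and stranded library preparation. Clover lines (3 libraries) carried a lentiviral pLENTI construct in which the CMV promoter drives the fluorescent protein Clover, and Z18trunc lines (3 libraries) carried the same vector with a truncated ZC3H18, the RNA surveillance protein also called Z18. All lines had passed lentiviral transduction and antibiotic selection. The lines were made in biological triplicate, so each is a separate transduction of one parental cell line, and the construct is expressed from a viral promoter at levels that the native gene does not set.

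Long noncoding RNAs are made by RNA polymerase II, capped, mostly spliced and polyadenylated like messenger RNA, but many stay in the nucleus and are present at low levels. Part of this low level comes from decay: the nuclear exosome degrades polyadenylated noncoding RNA through the PAXT connection, in which ZFC3H1 works with the helicase MTREX, and shorter unadenylated RNA through the NEXT complex of MTREX, ZCCHC8 and RBM7. ZC3H18 is a zinc-finger protein that links the nuclear cap-binding complex to these adaptors. Many long noncoding RNAs also contain transposable element (TE) sequence, and long terminal repeats (LTRs) of endogenous retroviruses can supply their promoters, splice sites or polyadenylation signals. The comparison asks whether the truncated protein changed the abundance of LINC RNA in colon cancer cells.

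The sequences below are the promoters of 5 LINC genes whose 3 Z18trunc values lay entirely on one side of the 3 Clover values, with LINC00476 and LINC01431 lower and the others higher. They are shown because these genes are among the 13 leading genes described below and RefSeq gave a promoter for them; none of the 13 passed the adjusted test. They run from 250 bases before to 50 bases after the annotated start (RefSeq, GRCh38.p14, 5′ to 3′ on the strand of the gene). Capitals mark matches on either strand to CCAAT, to the ETS core CCGGAAG, to the GC box GGGCGG or to TATAAA; none of these motifs overlap one another in the windows shown.
LINC00476 promoter, chr9:95875928-95876227, minus strand: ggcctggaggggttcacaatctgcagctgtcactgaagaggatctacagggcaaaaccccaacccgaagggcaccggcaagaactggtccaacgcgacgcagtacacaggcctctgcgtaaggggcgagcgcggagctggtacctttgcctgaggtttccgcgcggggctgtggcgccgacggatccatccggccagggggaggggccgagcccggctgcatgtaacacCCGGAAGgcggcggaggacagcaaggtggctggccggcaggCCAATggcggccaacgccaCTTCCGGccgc
LINC00938 promoter, chr12:45727872-45728171, minus strand: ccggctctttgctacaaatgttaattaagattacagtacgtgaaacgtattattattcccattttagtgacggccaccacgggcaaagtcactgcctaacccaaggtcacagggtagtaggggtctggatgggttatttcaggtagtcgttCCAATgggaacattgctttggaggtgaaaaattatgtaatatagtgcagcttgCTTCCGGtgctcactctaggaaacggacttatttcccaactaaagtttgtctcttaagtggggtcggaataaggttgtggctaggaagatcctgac
LINC01023 promoter, chr5:108728212-108728511, minus strand: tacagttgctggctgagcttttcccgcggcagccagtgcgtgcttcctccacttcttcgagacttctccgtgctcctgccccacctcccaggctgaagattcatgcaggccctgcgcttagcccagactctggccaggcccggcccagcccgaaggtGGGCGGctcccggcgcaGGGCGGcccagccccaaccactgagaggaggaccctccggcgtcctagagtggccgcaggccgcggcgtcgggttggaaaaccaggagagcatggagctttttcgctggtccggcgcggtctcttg
LINC00886 promoter, chr3:156817013-156817312, minus strand: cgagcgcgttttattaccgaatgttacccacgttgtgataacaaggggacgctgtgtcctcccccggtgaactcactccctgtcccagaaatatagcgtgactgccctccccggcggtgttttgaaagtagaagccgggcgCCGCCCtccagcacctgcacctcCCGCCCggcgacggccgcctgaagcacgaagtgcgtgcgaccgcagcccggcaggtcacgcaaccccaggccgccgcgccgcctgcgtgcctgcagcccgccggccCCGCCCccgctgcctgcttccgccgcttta
LINC01431 promoter, chr20:23358078-23358377, minus strand: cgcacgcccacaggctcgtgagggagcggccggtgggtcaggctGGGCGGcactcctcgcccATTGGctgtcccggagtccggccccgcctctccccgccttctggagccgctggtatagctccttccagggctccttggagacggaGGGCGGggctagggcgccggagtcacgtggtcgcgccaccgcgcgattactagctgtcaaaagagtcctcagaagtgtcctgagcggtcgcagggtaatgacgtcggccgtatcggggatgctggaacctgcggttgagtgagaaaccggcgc

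The promoter of LINC00476 held 2 ETS cores and 1 CCAAT, and that of LINC00938 held 1 of each. LINC01023 had 2 GC boxes, LINC00886 had 3, and LINC01431 had 2 with 1 CCAAT. None of the 5 windows held a TATA box. RefSeq gave a promoter for 133 of the 180 LINC genes. Among these, GGGCGG occurred in 54.1% against 45.0% of all 35116 promoters in the table, CCAAT in 37.6% against 34.6%, CCGGAAG in 14.3% against 10.3%, and TATAAA in 10.5% against 11.5%. A match is a description of the letters and does not show that a factor binds there.

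The label intergenic held for most of the 180 genes. By the gene spans in the deposited tables (hg38), 144 lay outside every other gene on both strands. Another gene lay on the opposite strand of 28 and on the same strand of 10, and 9 overlapped a protein-coding gene. A coding gene started within 1000 bases on the opposite strand of 18, which places these LINC genes head to head with it, and 11 began within 5000 bases behind the end of a coding gene on their own strand. RefSeq now lists 14 under another symbol: LINC00476 as ERCC6L2-AS1, LINC01184 as SLC12A2-DT, and LINC00634 as the coding gene SMIM45 among them. The median span was 7595.5 bases. A list of 5 other LINC symbols since renamed for small proteins, which did not hold LINC00634, had 0 entries in the tables.

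Aligned fragments ranged from 18226033 to 22463310 per library. ZC3H18 itself stood at 58.4, 51.3 and 61.8 TPM in Clover and at 752, 739 and 798 TPM in Z18trunc, with a log2 change of 3.72 (SE 0.09, limma adjusted p = 4.83e-05); reads from the construct and from the native gene cannot be told apart in this sum. Of 14 markers of colon epithelium, KRT8, KRT18, KRT19, CDX2 and EPCAM were present in every library and led by KRT18 and KRT8, while 5 (KRT20, CDX1, CDH17, LGALS4 and LGR5) stayed below 1 TPM throughout. Markers of other cell types were low: summed over 7 melanocyte genes they came to at most 5.09 TPM, over 5 fibroblast genes to at most 1.55, over 5 leukocyte genes to at most 5.49 and over 3 endothelial genes to at most 0.503. Single markers reached up to 4.48 TPM (CD68) and 3.60 TPM (PMEL).

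Most LINC genes were rare in these cells. Of the 1740 symbols, 1283 were listed at 0 in all 6 libraries and 277 lay above 0 but under the mean of 0.5 TPM. The 180 genes held 96.1% of all LINC TPM. Among them 30 averaged at least 10 TPM, 101 between 1 and 10, and 49 between 0.5 and 1, with a median of 2.15 TPM against 12.8 TPM over the 14372 genes that met the same abundance rule. The 10 most abundant held 32.6% of the TPM of all 180. Just inside the threshold were LINC01882 (0.502 TPM), LINC01976 (0.506) and LINC00334 (0.506), and just outside it LINC02585 (0.49962), LINC01969 (0.497) and LINC01775 (0.497); each of these 6 genes was listed at 0 in at least 1 library. In all, 10 of the 180 genes were at 0 in at least 1 library.

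LINC01123 was the most abundant, with 51.4, 40.1 and 49.8 TPM in Clover and 56.7, 47.1 and 52.1 TPM in Z18trunc. It is present at 2 places on chromosome 2 in the tables, and only 1.04% of the TE fragments inside it mapped uniquely, so its reads can be divided between near-identical copies. LINC00868 followed with 45.0, 44.7 and 43.5 TPM in Clover and 55.8, 44.3 and 44.6 TPM in Z18trunc. For both genes the groups overlapped.

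LINC00673, which has been described in pancreatic and other tumours, measured 41.3, 34.9 and 39.9 TPM in Clover and 43.2, 44.4 and 42.1 TPM in Z18trunc. LINC00674, whose nearest coding gene is the importin gene KPNA2, stood at 28.1, 23.6 and 26.9 TPM against 31.7, 33.5 and 32.6 TPM, and LINC02432 at 17.9, 18.1 and 19.6 TPM against 23.4, 28.0 and 30.5 TPM. In these 3 genes every Z18trunc value was above every Clover value, but the log2 change of LINC00673 (0.16) became 0.07 after quantile normalization and -0.026 after centring on the median level. LINC01124, which starts 770 bases from the Wnt-responsive transcription factor gene SP5, also did not overlap, at 17.4, 19.5 and 19.5 TPM against 20.7, 20.6 and 20.4 TPM, but its log2 change of 0.13 became -0.02 after quantile normalization and -0.06 after centring on the median level.

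The other 4 of the 10 were LINC00869, LINC01184, LINC00649 and LINC01278. LINC00869 had 13.3, 24.8 and 23.9 TPM in Clover, where the first library was the low one, and 22.6, 24.3 and 25.4 TPM in Z18trunc. LINC01184 had 20.8, 20.6 and 20.9 TPM in Clover and 16.9, 19.2 and 17.9 TPM in Z18trunc, with no overlap. LINC00649 and LINC01278 ranged from 14.8 to 20.9 TPM and from 16.4 to 20.1 TPM over the 6 libraries, and their groups overlapped. By group means, the order from LINC00869 to LINC01278 spans less than the spread within LINC00869 alone.

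**Figure D1:**
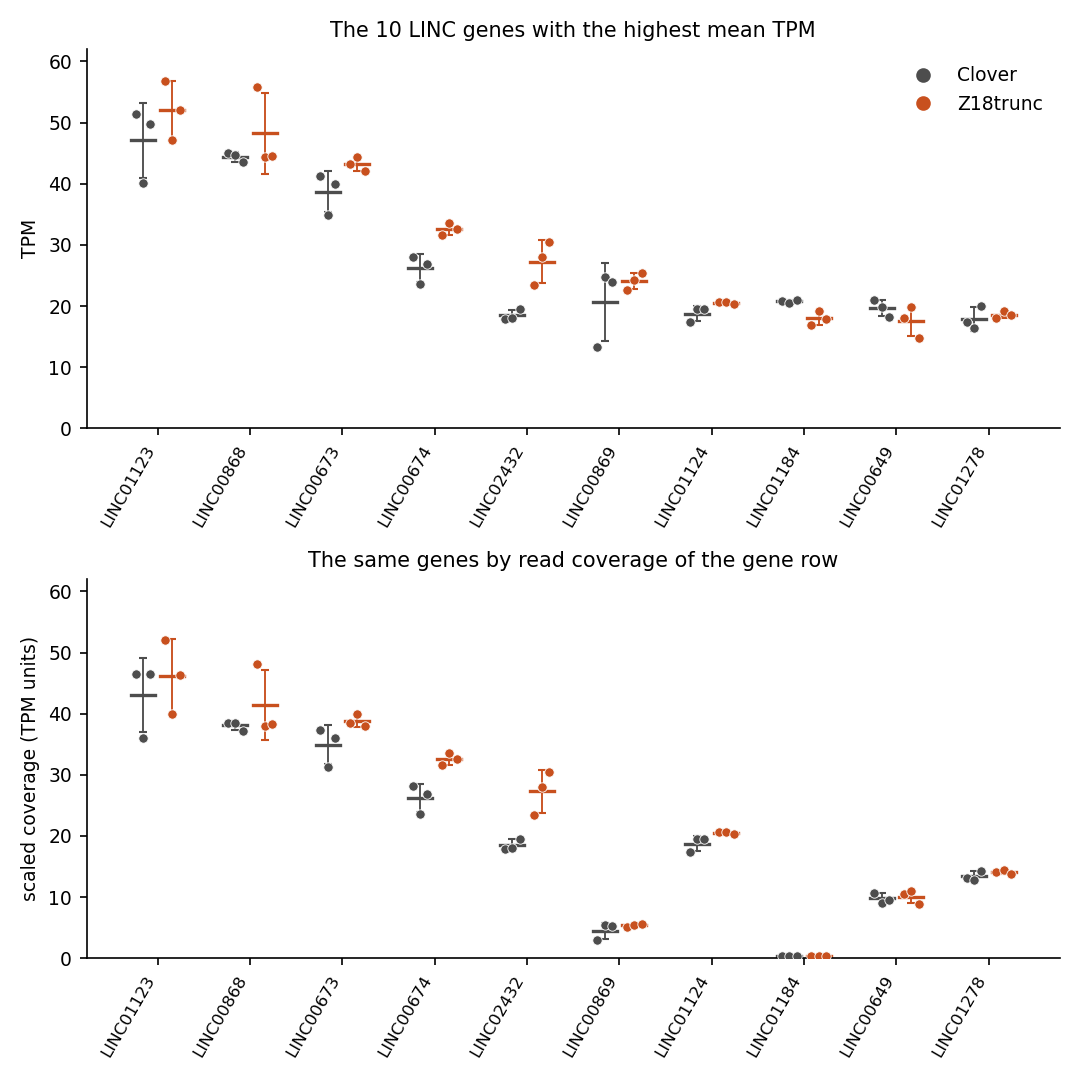
TPM (upper panel) and read coverage scaled to TPM units (lower panel) of the 10 LINC genes with the highest mean TPM, with 1 point per library, a bar at the group mean and an error bar of 1 SD (n = 3). LINC01184 stood at 16.9 to 20.9 TPM but at 0.32 to 0.393 by coverage, while LINC00674, LINC02432 and LINC01124 were equal in both panels.

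The deposited tables also list the average read coverage of each gene row. Multiplying it by the commonest ratio of TPM to coverage in the library gives a second level in the same units. For 134 of the 180 LINC genes the 2 levels differed by less than 1% in every library. Since the scale was set on the commonest ratio, close agreement for many genes follows from the scale itself. For 15 the TPM was more than 2 times the scaled coverage, with LINC01184 the most extreme at 53.4 times over the mean of the libraries. LINC00869 had 4.51 times and LINC00339 had 5.38 times more TPM than scaled coverage. Without overlap between groups, 27 of the 180 were higher by scaled coverage (background 29.6%) and 10 of the 180 lower (background 6.67%). By scaled coverage, 169 of the 180 genes still averaged at least 0.5.

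Summed over the 180 genes, LINC RNA came to 881, 805 and 847 TPM in Clover and to 910, 929 and 917 TPM in Z18trunc. The means were 844 ± 38.2 and 919 ± 9.65 TPM (SD, n = 3 each), a ratio of 1.09, with all 3 Z18trunc sums above all 3 Clover sums. Without the 5 most abundant genes the ratio was 1.07. Gene by gene, the median log2 change in Z18trunc was 0.10 over the LINC genes and 0.10 over all 14372 genes tested. A ratio of sums and a median over genes are different measures, so the ratio is not read from these medians. Quantile normalization, which gives every library the same distribution of values, took the median of all genes to -0.00485 and that of the LINC genes to -0.05. Changes of single genes are therefore given on the deposited scale, with their quantile-normalized value where the text turns on it.

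**Figure D2:**
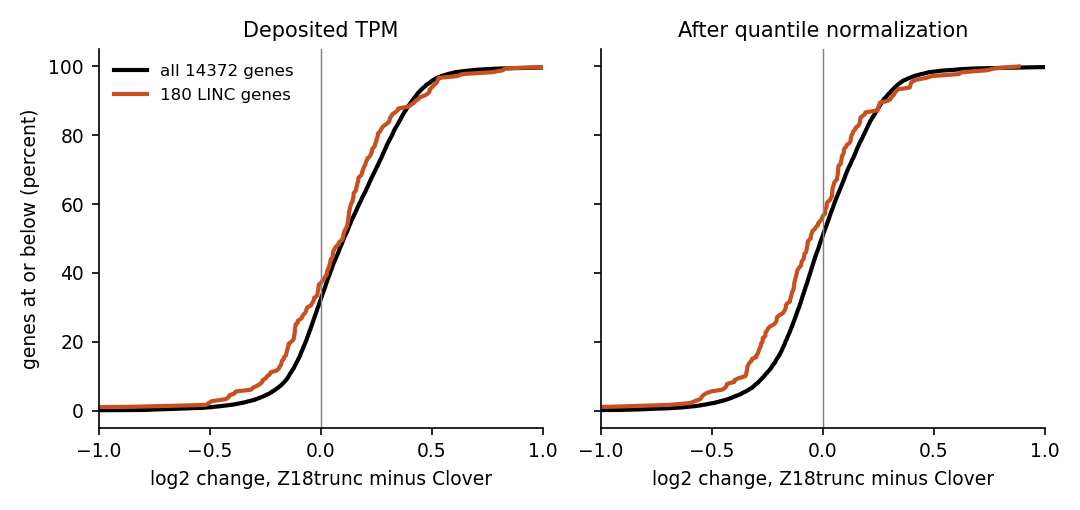
Cumulative distribution of log2 changes (Z18trunc minus Clover, horizontal axis, drawn from -1 to 1, which leaves out LINC00476 and, on the deposited scale, LINC01023) for the 180 LINC genes and for all 14372 genes tested, with the percent of genes at or below a change on the vertical axis. On deposited TPM both medians lie at 0.10; after quantile normalization the LINC curve lies left of that of all genes through the middle of the range, with medians of -0.05 and -0.00485.

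None of the 180 genes passed the test. The limma fit on log2(TPM + 1), adjusted by Benjamini-Hochberg over all 14372 genes, called 0 LINC genes at an adjusted p under 0.05, against 2 genes or 0.0139% of all genes. All 180 LINC genes entered this fit, since its filter on low values was the abundance rule itself. How many true changes the fit misses among LINC genes was not measured, so the 0 does not show absence of change. Without adjustment, p was under 0.05 for 28 LINC genes with higher values in Z18trunc (15.6%, background 24%) and for 7 with lower values (3.89%, background 2.85%). After quantile normalization these counts were 12 and 26 of the 180 LINC genes, against 12.1% and 10.3% of all genes. The split of higher against lower LINC genes therefore turned with the scaling, as it did when each library was centred on its median level (9 higher, 35 lower). The shares of all genes under that centring are not given. Its median log2 change was -0.083 over the LINC genes and -0.079 over all genes.

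Counts of genes without overlap need no scale for the spread. All 3 Z18trunc values lay above all 3 Clover values in 27 LINC genes (15%) and below them in 9 (5%), while 144 overlapped. Among all genes tested, 28.9% were higher and 6.58% lower without overlap. The share of higher genes went with abundance: it was 33.3% of the 30 LINC genes at 10 TPM or more, 15.8% of the 101 between 1 and 10 TPM, and 2.04% of the 49 below 1 TPM. The median coefficient of variation among Clover libraries was 7.9%, 18.5% and 31.6% in these 3 ranges, and its part in the lower share of LINC genes was not tested. After quantile normalization 11 LINC genes (6.11%) were higher and 29 (16.1%) lower without overlap, against 16.2% and 15.6% of all genes. The 11 were among the 27, and all 9 lower genes remained.

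**Figure D3:**
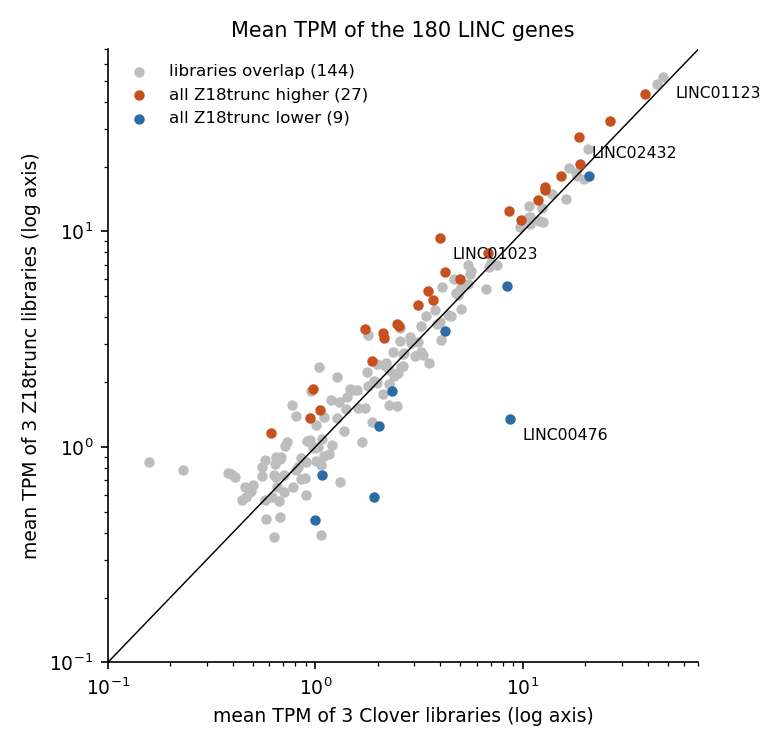
Mean TPM of each of the 180 LINC genes in 3 Clover (horizontal) and 3 Z18trunc libraries (vertical), both on log axes, with the line of equal values. Colours mark the 27 genes higher and the 9 genes lower in every Z18trunc library; LINC00476 lies farthest from the line.

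The same counts were made for other noncoding classes. Antisense genes, whose symbols end in -AS, were higher without overlap in 16.3% of 326 and lower in 6.44%, with a median log2 change of 0.09. Divergent transcripts, ending in -DT, were higher in 24.4% and lower in 9.76% of 41, and noncoding host genes, ending in HG, in 17.8% and 11.1% of 45. Intronic transcripts, ending in -IT, had 2 of 8 higher and 0 lower. Protein-coding genes, at a median of 16.2 TPM, were higher in 30.8% and lower in 6.90% of 12500.

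By position, the LINC genes outside every other gene were higher without overlap in 22 and lower in 6 of 144, with a median log2 change of 0.10, against 28.9% higher, 6.58% lower and a median of 0.10 over all genes. The 26 that overlapped another gene on the opposite strand only had 2 higher and 3 lower (median 0.00491), and the 18 that started head to head with a coding gene had 4 higher and 2 lower (median 0.07). The 10 that overlapped another gene on the same strand had 3 higher and 0 lower (median 0.13, with 90% of changes above 0, against 67.7% over all genes), and the 11 that began behind a coding gene had 2 higher and 0 lower (median 0.12). No test compared these classes.

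LINC00476 had the smallest p of the 180 genes. It measured 8.25, 9.66 and 8.01 TPM in Clover and 0.892, 2.27 and 0.882 TPM in Z18trunc, so that every Z18trunc library was far below every Clover library. The mean was 6.41 times lower, with a log2 change of -2.09 (SE 0.22, limma adjusted p = 0.0889). The gene missed the threshold in the full fit and passed it when the second Z18trunc library, the highest of the 3, was left out (log2 change -2.35, limma adjusted p = 0.00478) and with an intensity trend in the variance (limma adjusted p = 0.0269). Over all genes these fits called 3 and 8, against 2 in the full fit. Its ETS-bearing promoter, shown above, faces ERCC6L2, a gene for a DNA repair helicase of the SNF2 family, and its span overlaps that gene on the other strand. ERCC6L2 stood at 4.65, 3.43 and 4.41 TPM in Clover and at 6.61, 4.98 and 7.60 TPM in Z18trunc, the other way round from LINC00476 (log2 change 0.51, limma adjusted p = 0.112).

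The size of this difference depended on the column read. By scaled coverage LINC00476 stood at 1.15, 1.26 and 1.02 in Clover and at 0.526, 0.603 and 0.520 in Z18trunc, still without overlap but with a log2 change of -0.47 (limma adjusted p = 0.0831). Its TPM was 7.18, 7.64 and 7.84 times its scaled coverage in the Clover libraries and 1.70, 3.76 and 1.70 times in the Z18trunc libraries, so the 2 columns disagreed by a different factor in each group. Fragments of transposable elements on its strand inside its span numbered 78, 59 and 42 in Clover and 63, 57 and 82 in Z18trunc (log2 change 0.17, SE 0.22, edgeR adjusted p = 0.794), and here the groups overlapped.

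**Figure D4:**
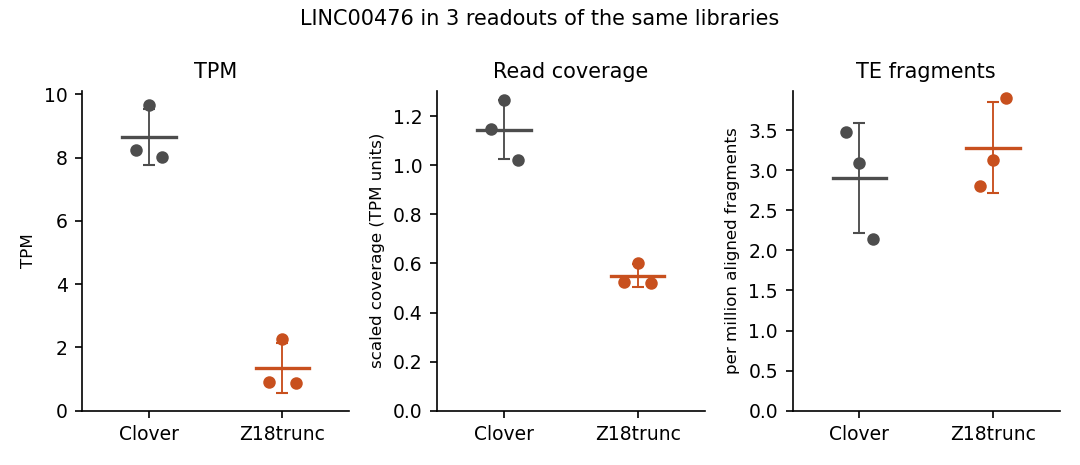
LINC00476 in 3 readouts of the same libraries: TPM, read coverage scaled to TPM units, and TE fragments on its strand in CPM (counts scaled to the aligned fragments of the library), with 1 point per library, a bar at the mean and an error bar of 1 SD (n = 3). TPM was 6.41 times lower in Z18trunc, coverage was also lower in every library, and TE fragments overlapped between 2.14 and 3.91 CPM.

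Among the 8 leading genes higher in Z18trunc, LINC01023 had the largest difference. Its span in the deposited tables is 437 bases on chromosome 5 (108727825 to 108728261, minus strand), while its GENCODE 44 exons cover 2616 bases, and it lies 19636 bases from FER, which encodes a tyrosine kinase. Its TPM was 3.37, 5.37 and 3.22 in Clover and 9.33, 7.51 and 11.1 in Z18trunc, 2.34 times higher in the mean (log2 change 1.06, SE 0.20, limma adjusted p = 0.0889). A MIRb element, an ancient SINE, covers its 3′ end on the same strand and held 3, 2 and 8 fragments in Clover against 13, 10 and 16 in Z18trunc (log2 change 1.54, SE 0.54, edgeR adjusted p = 0.305). Both readouts were higher in all 3 Z18trunc libraries. They share reads and are not independent of each other. FER stood at 1.44, 0.941 and 1.5 TPM against 2.41, 1.67 and 2.51 TPM (log2 change 0.48, limma adjusted p = 0.111).

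LINC00938, 1785 bases from ARID2, a gene for a chromatin-remodelling subunit, was 1.45 times higher in the mean. It stood at 8.43, 8.58 and 8.70 TPM in Clover and at 12.9, 11.4 and 12.9 TPM in Z18trunc, with a log2 change of 0.49 (SE 0.08, limma adjusted p = 0.0889) that became 0.31 after quantile normalization. ARID2 measured 4.75, 2.99 and 4.83 TPM against 5.22, 5.01 and 6.52 TPM. LINC01311 was rarer, at 2.23, 2.03 and 2.07 TPM against 3.54, 2.95 and 3.66 TPM (log2 change 0.49, SE 0.09, limma adjusted p = 0.0889).

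LINC00886 stood at 3.11, 3.24 and 3.01 TPM in Clover and 4.32, 5.11 and 4.24 TPM in Z18trunc (log2 change 0.43, limma adjusted p = 0.0889), and it contains the pseudogene PA2G4P4 on its own strand, so reads could be assigned to either. LINC01560 overlaps ZNF41 head to head on the X chromosome and had 3.74, 3.83 and 2.85 TPM against 4.75, 5.57 and 5.48 TPM (log2 change 0.49, limma adjusted p = 0.0899). LINC01730 begins 2373 bases behind CDC25B, a cell cycle phosphatase gene on the same strand, and had 2.04, 2.27 and 2.14 TPM against 2.75, 3.03 and 3.83 TPM. CDC25B itself was at 301 to 303 TPM in Clover and at 271 to 289 TPM in Z18trunc, so the gene in front was not higher. LINC00316 had 1.27, 0.800 and 0.838 TPM against 1.69, 2.38 and 1.49 TPM.

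LINC02432 was the one gene both among the 10 most abundant and among these 8, with a mean of 18.5 ± 0.908 TPM in Clover and 27.3 ± 3.57 TPM in Z18trunc (SD, n = 3 each; log2 change 0.53, SE 0.11, limma adjusted p = 0.0889). Its annotated start lies in an LTR12C on the same strand, an LTR of the HERV9 group that is known to serve as a promoter.

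This LTR12C held 119, 94 and 87 fragments on its strand in Clover and 136, 108 and 161 in Z18trunc. In CPM the means were 4.88 ± 0.434 and 6.55 ± 0.971 (SD, n = 3 each; log2 change 0.42, SE 0.16, edgeR adjusted p = 0.369). An MLT1C that overlaps another exon of LINC02432 had a log2 change of 0.92 (edgeR adjusted p = 0.32). A THE1A had 15, 16 and 18 fragments against 8, 32 and 24. Summed over the TEs that lie wholly inside LINC02432, the level was 2.27, 2.30 and 2.60 CPM against 2.23, 4.50 and 3.33 CPM, with overlap (log2 change 0.48, edgeR adjusted p = 0.408).

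The 5 leading genes lower in Z18trunc began with LINC00476, above. LINC00467, described in colorectal and other tumours, stood at 9.23, 8.20 and 7.70 TPM in Clover and at 5.71, 5.10 and 6.01 TPM in Z18trunc (log2 change -0.50, SE 0.09, limma adjusted p = 0.0889). TRAF5, the adaptor gene 7811 bases away, was the other way round, at 3.89, 3.93 and 2.65 TPM against 4.57, 4.62 and 4.55 TPM. LINC01431, near NXT1, which encodes an mRNA export factor, had 1.01, 2.78 and 1.97 TPM against 0.539, 0.270 and 0.939 TPM (log2 change -0.86, SE 0.26, limma adjusted p = 0.106). LINC00880 had 1.83, 2.61 and 1.62 TPM against 1.40, 1.31 and 1.04 TPM, and LINC00629 had 3.81, 4.52 and 4.35 TPM against 3.45, 3.22 and 3.71 TPM.

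**Figure D5:**
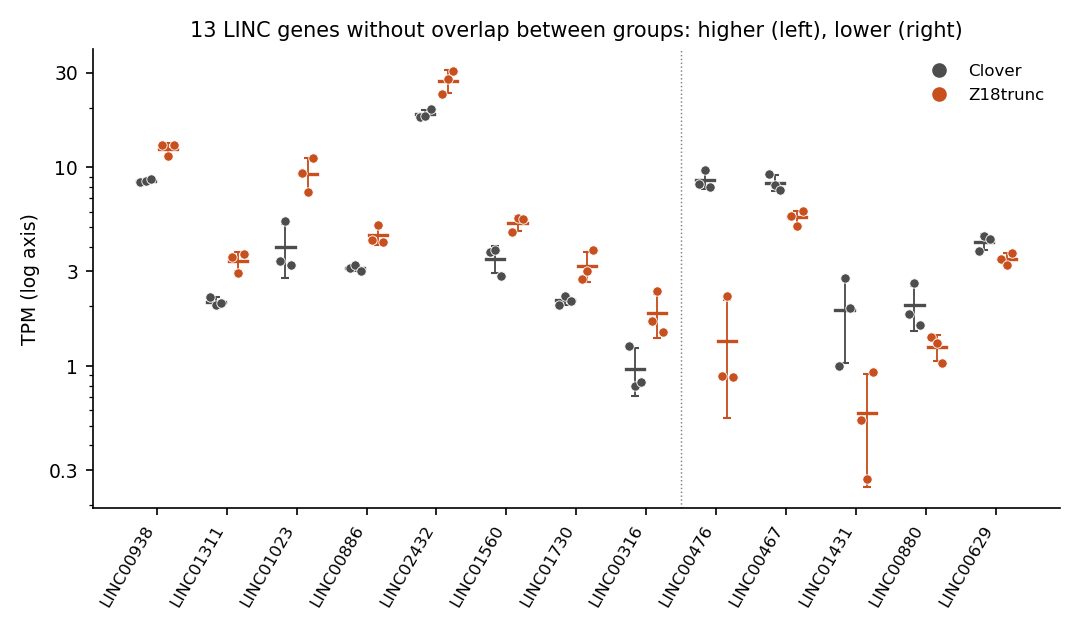
TPM (log axis) of the 8 LINC genes with the smallest p among those higher in every Z18trunc library (left of the dotted line) and of the 5 among those lower (right), with 1 point per library, a bar at the mean and an error bar of 1 SD (n = 3). No point of one group lies within the range of the other for any of the 13 genes, and none of them passed the adjusted test.

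The remaining genes without overlap had smaller differences or wider spread. On the higher side the ratio of means ran from 1.10 (LINC01124) to 2.02 (LINC00115), and on the lower side the 4 others were LINC01184, LINC00638, LINC01732 and LINC00237; these names outside the leading genes were chosen after their values were seen. Over all 180 genes, 21 were at least 1.5 times higher in the mean and 10 at least 1.5 times lower. Both counts can hold genes near the threshold that met it through the higher values of 1 group. On this scale 67.7% of all genes tested had a log2 change above 0. The shares of all genes at a ratio of 1.5 are not given, so these counts are not read as particular to LINC genes.

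The 18 head-to-head pairs were compared side by side. Of the coding partners, 4 were higher and 2 lower without overlap, 0 were called, and their median log2 change was 0.06 against 0.07 for the LINC genes. Among all protein-coding genes tested, 30.8% were higher and 6.90% lower without overlap. In 10 pairs both changes had the same sign, and in 0 pairs were both genes higher without overlap. In 2 pairs the groups separated in opposite directions: LINC00476 with ERCC6L2, given above, and LINC01184 with SLC12A2, the sodium-potassium-chloride cotransporter gene, which had 6.97, 4.75 and 6.39 TPM in Clover and 7.42, 7.78 and 9.30 TPM in Z18trunc. Both LINC genes are among the 15 whose TPM was more than 2 times their scaled coverage; by coverage LINC01184 had a log2 change of -0.04.

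LINC genes described in tumours were counted over a list of 39 symbols written from general knowledge, of which 18 were among the 180. The list did not hold LINC00673, given above as described in tumours and higher without overlap. The counts therefore cover the listed symbols only. Of these, 0 passed the test, 3 were higher and 1 lower without overlap, and the median log2 change was 0.02, against 28.9%, 6.58% and 0.10 over all genes. The most abundant 5 were LINC00963, LINC01315, LINC00659, LINC00339 and LINC01138, at mean levels of 15.1, 12.9, 12.6, 11.6 and 11.0 TPM. LINC01315 was higher without overlap, at 12.9, 9.93 and 12.6 TPM in Clover and 15.3, 13.7 and 12.9 TPM in Z18trunc, where the lowest Z18trunc value exceeded the highest Clover value by less than 0.01 TPM. In the other 4 the groups overlapped.

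Fragments assigned to TEs gave a second readout of the same libraries, in counts. TE loci on their own strand lying within the span of a LINC gene on that strand were summed per gene, and 88 of the 180 genes had at least 30 such counts, while 30 had none. The edgeR quasi-likelihood test called 0 of the 88 at an adjusted p under 0.05, against 11 of 8706 host genes or 0.126%. In a simulation this fit recovered 39.5% of log2 changes of 1, so the 0 does not show absence of change. An unadjusted p under 0.05 was reached by 11 LINC genes on the higher side (background 11%) and by 1 on the lower side (background 1.18%). The median log2 change was 0.19 for the LINC genes and 0.22 for all hosts. TMM scaling took these medians to -0.01 and 0.01 and the counts to 3 higher and 5 lower, against 3.73% and 4.57% of all hosts, so the direction of most of these values rests on scaling by aligned fragments. DESeq2 gave 3 at an unadjusted p under 0.05 and called 1, LINC00963, after its own filter on low counts (0 when adjusted over all hosts). The DESeq2 shares over all hosts are not given, so these counts are not read against a background. In 45 of the 88 genes TPM and TE fragments were both higher in Z18trunc, in 19 both lower and in 24 they differed in sign. With TEs of either orientation on the gene's strand, which adds fragments to more genes, 125 were tested and 0 called, against 0.404% of all hosts, with medians of 0.25 and 0.23.

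LINC00342, singled out after its values were seen, had the smallest p of this readout. Its TE fragments came to 8.18, 4.99 and 6.60 CPM in Clover and to 9.29, 10.3 and 11.0 in Z18trunc, without overlap (log2 change 0.62, SE 0.15, edgeR adjusted p = 0.063); with TMM scaling the log2 change was 0.41 (edgeR adjusted p = 0.396). Uniquely mapped fragments made up 73.6% of them. They include fragments of L1 elements that overlap its exons. Among these was an L1PREC2 (chr2:95816263-95817533) at 27, 6.22 and 23 fragments in Clover against 48.9, 30.1 and 44.1 in Z18trunc (log2 change 1.12, SE 0.31, edgeR adjusted p = 0.148). The TPM of the gene overlapped between groups, at 1.84, 1.5 and 1.06 against 1.75, 1.80 and 2.04. LINC00963 went the other way in TE fragments, at 19.6, 21.9 and 18.7 CPM against 16.5, 17.9 and 15.8 CPM (log2 change -0.26, SE 0.11, edgeR adjusted p = 0.303); with TMM scaling the log2 change was -0.46 (edgeR adjusted p = 0.129), and with DESeq2 and its own size factors it was -0.47 (DESeq2 adjusted p = 0.00733).

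Exons of 134 LINC genes in GENCODE 44 were overlapped by 468 TE loci on their own strand. Any overlap sufficed, and all fragments of such an exonic locus were counted. Some loci lay outside the deposited span of their gene, such as an LTR12C of LINC01882 (chr18:12775722-12777416, span 12739486 to 12749422). LTR loci (152 loci) carried the most fragments, at 86.9 ± 2.21 CPM in Clover and 91.1 ± 2.15 in Z18trunc, followed by SINE loci (177) at 44.9 ± 0.398 and 46.8 ± 0.534, LINE loci (89) at 28.7 ± 1.47 and 30.5 ± 1.46, and DNA transposons (50) at 5.55 ± 0.517 and 6.40 ± 0.911 (SD, n = 3 each). Of the 139 loci with at least 30 counts, edgeR called 0, against 25 of 12420 loci or 0.201%. The locus fit recovered 17.5% of log2 changes of 1 in a simulation, so most changes of that size would be missed. An unadjusted p under 0.05 was reached by 10 loci on the higher side (background 8.18%) and by 5 on the lower side (background 1.77%), and DESeq2 gave 6 at that threshold and called 0. The DESeq2 share over all loci is not given. The median log2 change was 0.02 for these exonic loci and 0.17 for all loci. The fullest locus was an LTR46-int of LINC01278 (chrX:63426869-63428052) with 1109 fragments in all and a log2 change of -0.05, beside a second LTR46-int of the same gene with 0.41 (edgeR adjusted p = 0.349).

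HERVH, an endogenous retrovirus with LTR7 as its LTR that is known for noncoding transcripts in stem cells and colon tumours, was looked for among the LINC genes by the names LTR7 and HERVH-int, which led the exonic TE fragments of LINC01356. The subtype LTR7B led those of LINC01842, a gene named after its values were seen, with 23, 16 and 26 fragments in Clover and 13, 23 and 21 in Z18trunc (log2 change -0.18, edgeR adjusted p = 0.909). LINC01356 stood at 12.2, 11.3 and 9.35 TPM in Clover and at 10.9, 10.4 and 12.7 TPM in Z18trunc, with overlap and a log2 change of 0.05 that became -0.14 after quantile normalization. The fuller of its 2 exonic LTR7 loci held 130, 113 and 86.3 fragments in Clover and 110, 72.8 and 136 in Z18trunc, and its HERVH-int 89.8, 81 and 76.2 against 87.3, 73.4 and 82.3. The other LTR7 held 21.1, 19.5 and 22.5 against 22.0, 33.8 and 20.5. The groups overlapped at all 3 loci, with log2 changes of -0.06, -0.04 and 0.32.

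The annotated start lay in a TE locus with reads in 26 LINC genes. In 10 of them the TE was of the repeat class LTR and on the strand of the gene: LINC02432 and LINC01647 start in LTR12C, LINC00239, LINC01169 and LINC01405 in THE1 elements, and the other 5 (LINC00431, LINC00653, LINC00659, LINC00880 and LINC01273) in HERVIP10F-int, MLT2F, LTR16A, MLT1A1 and LTR33A_. The class also holds internal retroviral sequence, marked -int, in which LINC00431 starts. Among these 10, 8 had a log2 change above 0, with a median of 0.34, or 0.18 after quantile normalization. Without overlap, LINC02432 was higher and LINC00880 lower, and 0 of the 10 were called. Over all genes tested, 67.7% had a change above 0, 28.9% were higher and 6.58% lower without overlap. LINC01647 had 0.520, 0.598 and 1.2 TPM in Clover and 0.749, 1.83 and 2.10 TPM in Z18trunc, and LINC00239 19.7, 13.9 and 16.5 against 16.7, 23.4 and 18.8, so the groups overlapped in both. Of the starts in SINE and LINE elements, 13 were opposite to the element and 2 on its strand.

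The nuclear decay genes were read from the same fit as the other genes of the pathway. Of 28 genes, ZC3H18 alone was called. Without adjustment, p was under 0.05 for 13 with higher values, ZC3H18 included, and for 1 with lower values. Without overlap, 18 were higher and 1 lower. These counts are on deposited TPM only. The median log2 change was 0.26, or 0.11 after quantile normalization. Over all genes tested, p was under 0.05 for 24% with higher and 2.85% with lower values, 28.9% were higher and 6.58% lower without overlap, and the median was 0.10. Quantile normalization took that median to -0.00485. ZFC3H1, the scaffold of PAXT, stood at 4.83, 3.21 and 3.45 TPM in Clover and 5.37, 5.53 and 7.18 TPM in Z18trunc (log2 change 0.55, limma adjusted p = 0.102). RBM7 and ZCCHC8 of NEXT had log2 changes of 0.35 and 0.42 (limma adjusted p = 0.0889 and 0.0898), while EXOSC4, a subunit of the exosome ring, was lower at 94.6, 102 and 104 TPM against 85.0, 82.7 and 74.2 TPM (log2 change -0.31, limma adjusted p = 0.0963). After quantile normalization the log2 changes were 0.36 for ZFC3H1, 0.17 for RBM7, 0.24 for ZCCHC8 and -0.37 for EXOSC4.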

How the data were processed

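PolyA RNA-seq of 6 SW480 lines (3 Clover, 3 Z18trunc, groups from the sample titles) was analysed from deposited tables on hg38. Reads were trimmed with cutadapt 4.6, per the submitters' processing notes. The authors' gene tables, in StringTie layout, give deposited TPM, FPKM and read coverage per gene row, without counts, so the depth behind a TPM value is unknown. The authors' SQuIRE tables give, per TE locus and strand, whole-number counts of uniquely mapped fragments as deposited. They also give estimated counts, in which the authors shared multiply mapped fragments among loci.

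TPM, FPKM and coverage were summed by symbol. Genes with a mean of at least 0.5 TPM were fitted with limma 3.58.1 (R 4.3.3) on log2(TPM + 1), Z18trunc against Clover, two-sided, adjusted by Benjamini-Hochberg over 14372 genes; fold changes on this scale understate those of low genes. Coverage was scaled in each library by the commonest ratio of TPM to coverage over gene rows with coverage. Estimated TE counts on the TE's own strand were rounded and tested with edgeR 4.0.16 (quasi-likelihood, at least 30 counts, library size set to aligned fragments). They were summed within each host gene's span or taken per locus, and loci that overlap GENCODE 44 exons of LINC genes were read out. DESeq2 1.42.0 was an alternative. The limit behind a gene without counts is 3 counts, which is 0.134 to 0.165 CPM by library and covers counting error only. Positions came from the deposited spans and RefSeq GRCh38.p14, and overlaps from bedtools 2.31.1. As a check, each fit was run on a simulation in which 200 genes, hosts or loci had a log2 change of 1. The gene fit recovered 79% of them, the TE host fit 39.5% and the TE locus fit 17.5%. A count of 0 called TE hosts or loci therefore does not show that changes of this size were absent. The 79% is a share over genes drawn from all 14372, at a median of 12.8 TPM against 2.15 TPM for the LINC genes. Recovery among LINC genes was not measured. In the real fit LINC00476 was not called at a log2 change of -2.09. The 0 called LINC genes therefore do not show absence of such changes either.

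The genes, the lists and the rules for naming genes were chosen with earlier results of these data known. Named are ZC3H18, called genes, the 10 most abundant, the 8 higher and 5 lower genes without overlap with the smallest p, genes led by HERVH-int or LTR7, up to 5 of the tumour list and the 3 genes on either side of the threshold. The replicate numbers did not pair the samples (correlations of deviations from -0.03 to 0.02), and no 2 libraries of a group agreed within sampling noise (chi-square per degree of freedom 1.64 to 2.13). With 3 against 3, an exact permutation test of a single value cannot go below p = 0.1, so none was used. The sequences of 2 TE-derived stretches are not reported here.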

Additional observations from a re-analysis of the deposited data

How the results depend on the processing

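The 13 leading genes without overlap kept their direction under every alternative run, and 17 of the 28 named LINC genes did. For the 13 genes this was partly fixed by how they were chosen. Without overlap, leaving out 1 library cannot turn the sign, and the trend, block and filter runs keep the same log2 change. The intensity trend in the variance called 1 LINC gene, LINC00476, in place of 0, and 8 of all 14372 genes in place of 2. Scaling decided the split of unadjusted calls: 13 higher and 17 lower after centring on the median change, 9 and 35 after centring on the median level, and 12 and 26 after quantile normalization, with medians of -0.0058, -0.083 and -0.054 over the LINC genes. Over all genes the medians were -0.00197, -0.0794 and -0.00485 in the same order. The shares of all genes were 12.1% higher and 10.3% lower after quantile normalization and are not given for the 2 centrings. Quantile normalization also left 11 higher and 29 lower without overlap, against 16.2% and 15.6% of all genes. From FPKM the log2 ratio of the summed level was 0.055. For TE fragments, 1 LINC gene was called by DESeq2 with its own size factors (LINC00963) and 1 with no filter beyond 1 count (LINC00342). The shares of all hosts called in these runs are not given. The 2 centrings, scaled coverage, TEs of either orientation and DESeq2 adjusted over all features were added after the data were seen.

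Centring on the median level turned the log2 change of LINC01123 to -0.039, LINC00868 to -0.076, LINC00673 to -0.026, LINC01124 to -0.057, LINC01278 to -0.13, LINC01356 to -0.14, LINC00659 to -0.15 and LINC01138 to -0.13. Centring on the median change gave -0.052 for LINC01278, -0.061 for LINC01356, -0.074 for LINC00659 and -0.052 for LINC01138. Quantile normalization gave -0.021 for LINC01124, -0.097 for LINC01278, -0.14 for LINC01356, -0.15 for LINC00659 and -0.13 for LINC01138. Scaled coverage gave 0.036 for LINC00649.

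Leaving out 1 library at a time gave 0 to 1 LINC genes called (LINC00476, without Z18trunc replicate 2), 7 to 13 lower at an unadjusted p under 0.05 (13 without Z18trunc replicate 3), medians of 0.052 (without Clover replicate 2) to 0.10, and 32 to 46 higher and 13 to 22 lower without overlap, where fewer samples overlap less often by construction; these are 17.8% to 25.6% and 7.22% to 12.2% of the LINC genes, against 31.4% to 38.1% and 8.98% to 11.1% of all genes. The log2 change then ran from -0.018 (without Clover replicate 1) to 0.41 for LINC00869, from -0.0053 to 0.14 for LINC01278, from -0.056 to 0.12 for LINC01356, from -0.14 to 0.14 for LINC00659, from -0.23 to 0.0080 for LINC00339 and from -0.13 to 0.23 for LINC01138. The cause was not tested for any of these. Over all genes, the runs without 1 library called 1 to 4 genes. Their medians over all genes ran from 0.068 (without Clover replicate 2) to 0.13 (without Clover replicate 1). The shares of all genes at an unadjusted p under 0.05 are not given for these runs.

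A replicate block, which pairs samples by number, called 0 LINC genes, gave 25 and 8 LINC genes on the higher and lower side before adjustment, and called 1 gene over all genes (ZC3H18) in place of 2. The shares of all genes before adjustment are not given for this run. The replicate numbers did not pair the samples. The depth behind TPM is unknown, and the 49 LINC genes under 1 TPM had median coefficients of variation of 31.6% in Clover and 41.8% in Z18trunc.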
